A study of Mus musculus with 70 samples.

Results

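The tumours compared here were mouse medulloblastomas of the Sonic hedgehog (SHH) type, chosen by their measured level of Sox2 messenger RNA and split into 20 Sox2-high and 20 Sox2-low tumours, which together make 40 of the 70 tumours in the series. All 40 were Lazy Piggy tumours, and all carry the same labelled alleles. These are a ptch1 allele whose state the labels do not give, the construct nestin Luc SB100, a transgene called nestin Cre, the Rosa26 LSL allele of PBERT2, and the Lazy Piggy transposon itself. SB100 is a transposase that mobilises the transposon, and PBERT2 is another transposase that tamoxifen switches on. The nestin promoter, which drives SB100 and Cre, is active in neural progenitors, so those 2 steps are limited to cells in which that promoter has been active. Of the 59 Lazy Piggy tumours with a treatment label, 29 had tamoxifen (TAM+) and 30 had none (TAM-). Within each treatment group the 10 tumours with the highest Sox2 level were taken as Sox2-high and the 10 with the lowest as Sox2-low, and 19 tumours lay between them. The 10 Math1-Cre; SmoM2 tumours of the series, 3 Kcnb2 knockout and 7 Kcnb2 wild-type, took no part in that choice and were used as a further set. The labels give no age, and nothing in them says that the tumours came from separate animals, so each p-value reflects variation among these tumours, which may be partly technical.

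Sox2 is a transcription factor that keeps neural stem cells undifferentiated. In the postnatal cerebellum it is also made by Bergmann glia and other astrocytes. In mouse SHH medulloblastoma, rare and slowly dividing Sox2-positive tumour cells have been described as the cells that propagate the tumour, while most tumour cells resemble granule neuron progenitors, which express Atoh1 and little Sox2. RNA from a whole tumour holds both kinds of Sox2 source. The comparison therefore asks which other genes were high where Sox2 was high: genes of stem-like cells, genes of glia, or both. In such bulk samples, fewer cells of a type and less RNA per cell cannot be told apart.

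Sox2 chose the groups, so its values are a description. In counts per library total of 1000000 (CPM), Sox2 was 36.9, 41.6 and 60.3 in the Sox2-high tumours with tamoxifen (lowest, median and highest), against 12.9, 21.8 and 27.0 in the Sox2-low tumours with tamoxifen. Without tamoxifen it was 33.7, 39.4 and 68.1 CPM in the Sox2-high tumours and 7.27, 19.2 and 22.8 CPM in the Sox2-low tumours. The middle tumours ran from 25.0 to 36.2 CPM. With tamoxifen, the last tumour taken as high had 36.9 CPM and the next one left out had 36.2 CPM, while the last one taken as low had 27.0 CPM and the next one left out 28.1 CPM. Without tamoxifen those values were 33.7 and 32.4 CPM at the upper edge, and 22.8 and 25.0 CPM at the lower edge. The edges thus cut through a continuous range. Sox2 rested on 255 to 526 reads per library in the Sox2-high tumours and on 52 to 213 reads in the Sox2-low tumours.

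**Figure D1:**
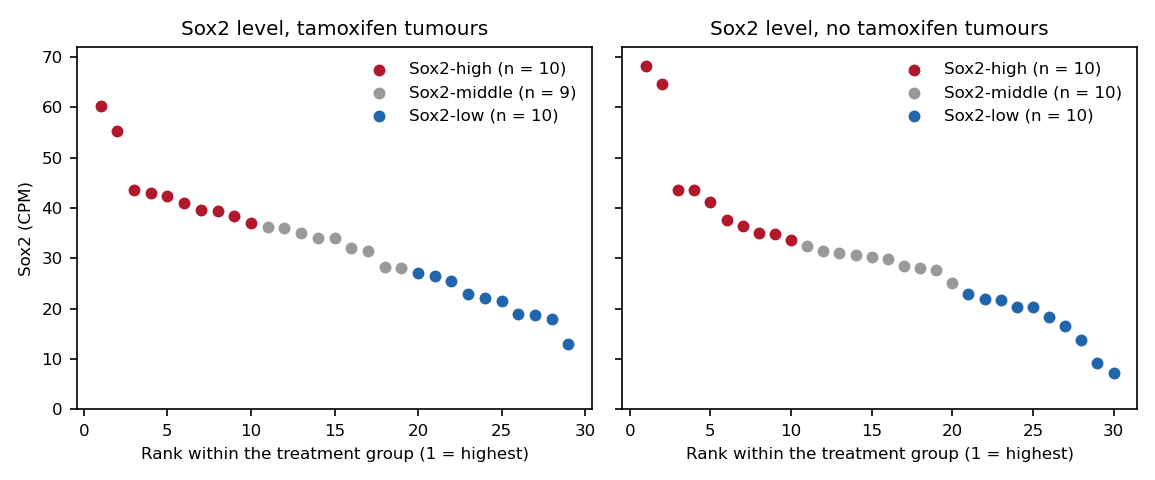
Sox2 level in CPM (y axis) of each tumour against its rank within the treatment group (x axis, 1 being the highest), with tamoxifen on the left and without on the right. Red points are the Sox2-high tumours, blue points the Sox2-low tumours and grey points the tumours between them. In each treatment group 2 tumours stand above 50 CPM and the others form a continuous slope.

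Total counts per library ran from 5869618 to 8667344 over the 59 tumours, and from 23923453 to 39387125 over the SmoM2 tumours. No 2 libraries of a table agreed within sampling noise. Dates in the titles put 10 of the 20 Sox2-high and 9 of the 20 Sox2-low tumours in the earlier period. Tamoxifen replicate 14, a Sox2-low tumour, stood apart: it had the highest astroglia, myelin and Purkinje scores of the 40 tumours, a score being the mean log2 CPM of a marker list. Its values were 7.27 for astroglia, 7.50 for myelin and 8.88 for Purkinje cells and interneurons. Where leaving it out changed a call or moved a list's median by over 1.5 times, the value without it follows the result.

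Across all genes, 31 were higher in the Sox2-high tumours and 30 were lower, out of 13702 genes tested with edgeR's quasi-likelihood test with treatment as a covariate. The calls took 0.226% of the genes upward and 0.219% downward at an adjusted p under 0.05, and the median log2 fold change of all genes was -0.01. Genes that Notch signalling induces were among those called, while no gene of the astrocyte and Bergmann glia list and no gene of the stem and progenitor list passed the threshold. Leaving out each tumour in turn gave 12 to 61 higher and 4 to 82 lower genes. Of the 61 called genes, 15 were called in all 40 of those fits, and 12 of these 15 were higher in the Sox2-high tumours. By comparison, DESeq2 called 95 genes higher (0.554%) and 177 lower (1.03%), and edgeR with a score of mature cerebellum markers (myelin, Purkinje) as a further covariate called 52 higher (0.38%) and 67 lower (0.489%). Called in all 40 fits and higher were Wif1, Hes5, Atf5, Fgfr2, Rgma, Fabp7, Nrarp, Mpp5, Gpt2, Lix1l, Cdo1 and Flrt3.

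Hes5, a repressor that Notch signalling switches on in neural stem cells and radial glia, was called and was the gene whose level followed Sox2 most closely. It had 4.12, 8.84 and 38.1 CPM in the Sox2-high tumours (lowest, median and highest), against 0.557, 1.97 and 9.80 CPM in the Sox2-low tumours. All 20 Sox2-high tumours lay above the Sox2-low median, although the groups overlapped, with 9 of the 20 above every Sox2-low tumour. The log2 fold change was 1.97 ± 0.32 (SE), with an edgeR adjusted p of 0.00145. Across the 59 tumours, its Spearman correlation with Sox2 was 0.704, the highest of 13158 genes ranked; the groups were chosen from these libraries, so this is a description. Nrarp, a feedback inhibitor that Notch induces, had 11.0, 21.4 and 42.9 CPM in the Sox2-high tumours and 4.48, 12.4 and 20.6 CPM in the Sox2-low tumours. In 13 of 20 Sox2-high tumours Nrarp was above every Sox2-low tumour. Its log2 fold change was 0.78 ± 0.16 (SE; edgeR adjusted p = 0.0171). Fabp7, a fatty acid binding protein of radial glia, Bergmann glia and stem-like cells, had 96.0, 126.6 and 202.9 CPM in the Sox2-high tumours, against 25.0, 79.7 and 171.3 CPM in the Sox2-low tumours. The Sox2-low median of Fabp7 was exceeded by all 20 Sox2-high tumours, and 13 of the 20 Sox2-low tumours lay below every Sox2-high tumour. The log2 fold change of Fabp7 was 0.70 ± 0.15 (SE; edgeR adjusted p = 0.0282).

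The starts of these 3 genes are shown because Notch acts on its targets through RBPJ, whose core site is written TGGGAA, or TTCCCA on the opposite strand. The lines give the 250 bases before each start from RefSeq (GRCm38.p6, plus strand), at chr4:154960673-154960922 for Hes5, chr2:25180508-25180757 for Nrarp and chr10:57784673-57784922 for Fabp7. Capitals mark the core letters.
Hes5: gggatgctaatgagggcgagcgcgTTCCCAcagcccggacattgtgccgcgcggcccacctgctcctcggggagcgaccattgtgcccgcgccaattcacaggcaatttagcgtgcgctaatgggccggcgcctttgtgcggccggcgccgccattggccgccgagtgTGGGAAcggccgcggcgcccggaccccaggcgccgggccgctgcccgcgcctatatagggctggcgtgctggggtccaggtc
Nrarp: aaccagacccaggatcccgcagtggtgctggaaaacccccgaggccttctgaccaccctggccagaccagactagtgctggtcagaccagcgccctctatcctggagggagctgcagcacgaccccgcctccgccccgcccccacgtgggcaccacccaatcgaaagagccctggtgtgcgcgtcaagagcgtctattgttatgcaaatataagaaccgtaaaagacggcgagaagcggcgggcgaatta
Fabp7: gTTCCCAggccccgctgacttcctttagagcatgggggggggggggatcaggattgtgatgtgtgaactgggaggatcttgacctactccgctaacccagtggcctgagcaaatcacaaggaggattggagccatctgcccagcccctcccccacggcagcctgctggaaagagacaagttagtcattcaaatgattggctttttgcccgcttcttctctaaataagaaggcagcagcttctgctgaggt
Hes5 holds the core once in each orientation, Fabp7 holds it once and Nrarp does not hold it in this window. Over the 28 windows found for 24 of the genes higher in the Sox2-high tumours, 6 windows (21.4%) held the core, against 7 of the 24 windows (29.2%) of the genes lower there and 21.6% of all 32851 windows. The letters AACAATG or CATTGTT, a core that Sox proteins bind, were in 1 of the 28 windows (3.57%) of the higher genes, in 0 of the 24 windows of the lower genes, and in 3.29% of all windows. Such a match describes the letters in the window and is not a measured binding site.

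Beyond Hes5 and Nrarp, no gene of the Notch list was called. Of its 20 genes tested, 2 were higher at the adjusted threshold and none was lower, and the list's median log2 fold change was 0.04 (0.03 without tamoxifen replicate 14), beside -0.01 for all genes. Hes1, the companion repressor of Hes5, had 6.00, 11.8 and 30.6 CPM in the Sox2-high tumours and 3.25, 8.45 and 18.8 CPM in the Sox2-low tumours, with a log2 fold change of 0.57 ± 0.20 (SE; edgeR adjusted p = 0.163). The groups overlapped for Hes1, and 15 of 20 Sox2-high tumours lay above the Sox2-low median. Before adjustment, 6 Notch genes were higher at p under 0.05, a level that 5.91% of all genes reached upward, and 1, the ligand Jag2, was lower, as were 8.58% of all genes.

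Wif1, Fgfr2 and Rgma, set together here after they were called and not as a tested group, were also higher. Wif1, a secreted protein that binds and blocks Wnt ligands, had the largest fold change of the named genes. It had 1.14, 6.63 and 48.3 CPM in the Sox2-high tumours, against 0, 0.992 and 4.97 CPM in the Sox2-low tumours. Every Sox2-high tumour was above the Sox2-low median of Wif1, and 12 of 20 were above every Sox2-low tumour. The log2 fold change of Wif1 was 3.19 ± 0.47 (SE; edgeR adjusted p = 0.00055), and it stayed between 2.87 and 3.49 when each tumour was left out. Fgfr2, a fibroblast growth factor receptor, had 13.4, 36.8 and 73.5 CPM in the Sox2-high tumours and 3.92, 21.3 and 36.1 CPM in the Sox2-low tumours. For Fgfr2, 11 of 20 Sox2-high tumours lay above every Sox2-low tumour, and the log2 fold change was 0.92 ± 0.19 (SE; edgeR adjusted p = 0.0294). Rgma, a membrane protein that guides axons and acts as a co-receptor for bone morphogenetic proteins, had 50.0, 92.7 and 259.6 CPM in the Sox2-high tumours, against 24.8, 53.3 and 105.1 CPM in the Sox2-low tumours. Its groups overlapped, with 19 of 20 Sox2-high tumours above the Sox2-low median, and its log2 fold change was 0.84 ± 0.17 (SE; edgeR adjusted p = 0.0283).

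Hhip, a hedgehog target that binds hedgehog ligands and blocks them, was the called gene of the hedgehog list. It had 25.2, 49.8 and 120.5 CPM in the Sox2-high tumours and 8.19, 23.5 and 70.4 CPM in the Sox2-low tumours. All 20 Sox2-high tumours were above the Sox2-low median, but the log2 fold change of 0.97 ± 0.23 (SE; edgeR adjusted p = 0.0437) was lost from the calls in 24 of the 40 fits without 1 tumour, with an adjusted p of up to 0.0795 without tamoxifen replicate 25. The other 15 hedgehog genes tested were not called, and the list's median was 0.08 (0.03 without tamoxifen replicate 14). Gli1, the usual readout of hedgehog activity, had medians of 259.5 CPM in the Sox2-high and 211.1 CPM in the Sox2-low tumours (log2 fold change 0.37 ± 0.15, SE; edgeR adjusted p = 0.259).

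**Figure D2:**
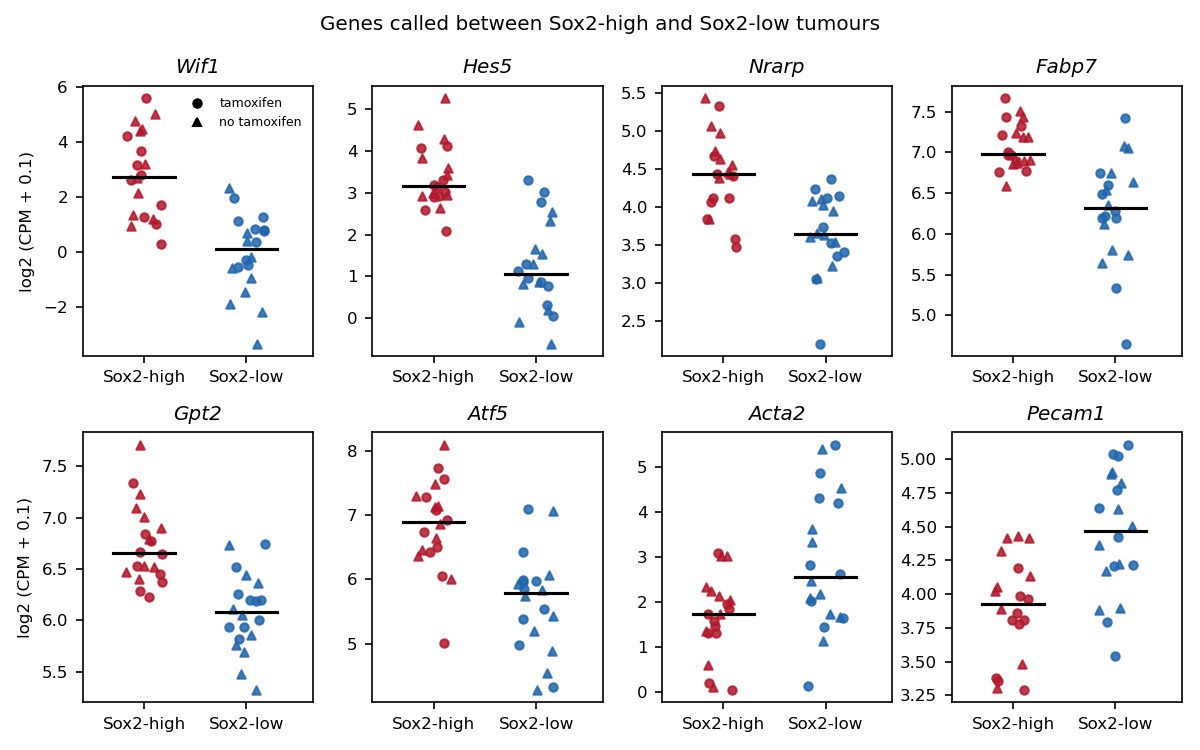
Levels of 8 called genes in each tumour, as log2 of CPM plus 0.1 (y axis), in Sox2-high tumours (red, left) and Sox2-low tumours (blue, right). Circles are tumours with tamoxifen, triangles tumours without, and the black line is the median of the group. Wif1, Hes5, Nrarp, Fabp7, Gpt2 and Atf5 sit higher in the Sox2-high tumours, while Acta2 and Pecam1 sit lower, and every pair of groups overlaps.

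Among the genes of Sox2's own family, none passed the threshold: 14 of the list were tested, 10 had a positive fold change and the median was 0.14. Sox21, a close relative of Sox2 in neural progenitors, had medians of 5.66 CPM in the Sox2-high and 3.46 CPM in the Sox2-low tumours (log2 fold change 0.74 ± 0.27, SE; edgeR adjusted p = 0.191). Sox1ot, a non-coding transcript at the Sox1 locus, was called, with 2.83, 6.84 and 23.6 CPM in the Sox2-high tumours and 1.87, 4.22 and 7.09 CPM in the Sox2-low tumours. Its groups overlapped, with 9 of 20 Sox2-high tumours above every Sox2-low tumour, and its log2 fold change was 1.08 ± 0.24 (SE; edgeR adjusted p = 0.0321). The call of Sox1ot ended in 3 of the 40 fits without 1 tumour, and as the strand setting of the counting is not known, its reads cannot be told apart from those of Sox1. Sox1 itself and Sox2ot, the transcript that overlaps Sox2, were not analysed here, and the 3 genes tested beside Sox2 had log2 fold changes of 0.03 to 0.16 with none called.

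Astrocyte and Bergmann glia markers were shifted upward as a list in the Sox2-high tumours, without a single call. Of 40 listed genes, 39 were tested and 38 had a positive log2 fold change, compared with 46.4% of all genes, and the median was 0.54. With the mature cerebellum score as a further covariate the median of this list was 0.32. No member passed the adjusted threshold, and 18 were higher at an unadjusted p under 0.05, which 5.91% of all genes reached upward. The astroglia score was 4.96, 5.86 and 7.23 in the Sox2-high tumours (lowest, median and highest) and 3.75, 5.50 and 7.27 in the Sox2-low tumours, so the groups overlapped over most of their range. Slc1a3, the glutamate transporter of Bergmann glia and astrocytes, had 331.7, 695.6 and 1053 CPM in the Sox2-high tumours and 215.5, 423.6 and 1235 CPM in the Sox2-low tumours. For Slc1a3, 18 of 20 Sox2-high tumours were above the Sox2-low median, with a log2 fold change of 0.54 ± 0.16 (SE; edgeR adjusted p = 0.093). Kcnj10, the potassium channel of astroglia, had medians of 220.6 CPM in the Sox2-high and 113.5 CPM in the Sox2-low tumours (log2 fold change 0.89 ± 0.24, SE; edgeR adjusted p = 0.0667). Aqp4, the water channel of astrocyte endfeet, had 56.7, 186.9 and 635.0 CPM in the Sox2-high tumours and 5.81, 127.3 and 424.9 CPM in the Sox2-low tumours, a log2 fold change of 0.69 ± 0.32 (SE; edgeR adjusted p = 0.315) with overlapping groups.

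The members of the astroglia list differed among themselves. Gfap, the intermediate filament of reactive and fibrous astrocytes, had 115.9, 212.3 and 670.2 CPM in the Sox2-high tumours and 47.7, 223.4 and 679.1 CPM in the Sox2-low tumours. The Gfap groups lay on top of each other, with 10 of 20 Sox2-high tumours above the Sox2-low median, and the log2 fold change was 0.12 ± 0.22 (SE; edgeR adjusted p = 0.852). Across the list the log2 fold changes ran from -0.03 for F3 to 1.20 for Itih3. Tamoxifen replicate 14 stood apart in this list: it had 369.9 CPM of S100b, a calcium-binding protein of astrocytes, where the next Sox2-low tumour with tamoxifen had 138.7 CPM. With that tumour, S100b had a log2 fold change of 0.74 ± 0.30 (SE; edgeR adjusted p = 0.226). Gdf10, a growth factor of Bergmann glia, had medians of 16.3 CPM in the Sox2-high and 13.5 CPM in the Sox2-low tumours (log2 fold change 0.58 ± 0.49, SE; edgeR adjusted p = 0.614), and its log2 fold change was 0.96 without that tumour. Without that tumour all 39 astroglia markers had a positive log2 fold change, the median was 0.68, and 4 were called, Kcnj10, Itih3, S100b and Slc1a3. It is a Sox2-low tumour with the highest astroglia score, so its removal widens this difference by construction. Over all fits without 1 tumour the median of the list ran from 0.37 to 0.68. The call count of the list was 2 without no tamoxifen replicate 23 and 1 without no tamoxifen replicate 8.

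Stem and progenitor genes that are not astrocyte markers had a median closer to that of all genes. Of 28 listed, 19 were tested, 13 had a positive log2 fold change, none was called and the median was 0.12 (0.07 without tamoxifen replicate 14), beside 46.4% positive among all genes. At an unadjusted p under 0.05, 4 of the 19 were higher (Pou3f4, Olig2, Bmi1 and Pax3), a level that 5.91% of all genes reached upward. The stem score was 4.86, 5.16 and 5.51 in the Sox2-high tumours and 4.41, 4.92 and 5.36 in the Sox2-low tumours, again overlapping. Olig2, a transcription factor of glial and tumour progenitors, had 26.4, 64.2 and 120.0 CPM in the Sox2-high tumours and 21.6, 40.5 and 103.9 CPM in the Sox2-low tumours. In 19 of 20 Sox2-high tumours Olig2 was above the Sox2-low median, with a log2 fold change of 0.47 ± 0.16 (SE; edgeR adjusted p = 0.164). Pou3f4, a POU factor of neural progenitors, had medians of 6.97 CPM in the Sox2-high and 5.07 CPM in the Sox2-low tumours (log2 fold change 0.60 ± 0.16, SE; edgeR adjusted p = 0.071). Prom1, the stem cell surface protein also called CD133, had 22.7, 33.7 and 50.4 CPM in the Sox2-high tumours and 22.0, 33.8 and 57.1 CPM in the Sox2-low tumours. The Prom1 groups lay on top of each other, with a log2 fold change of -0.07 ± 0.11 (SE; edgeR adjusted p = 0.822). Msi1, an RNA-binding protein of neural stem cells, had medians of 145.2 CPM in the Sox2-high and 163.1 CPM in the Sox2-low tumours (log2 fold change -0.17 ± 0.09, SE; edgeR adjusted p = 0.393).

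Genes that neural stem cells and astroglia both express gave the 2 calls already described, Hes5 and Fabp7, among 20 tested. Over all genes 0.226% were called higher. The list's median log2 fold change was 0.17, and 16 of the 20 were positive, beside 46.4% of all genes. Nes, the intermediate filament nestin, had 93.6, 212.2 and 517.0 CPM in the Sox2-high tumours and 44.2, 191.1 and 344.7 CPM in the Sox2-low tumours (log2 fold change 0.37 ± 0.21, SE; edgeR adjusted p = 0.418). Vim, the filament vimentin, had medians of 328.0 CPM in the Sox2-high and 316.3 CPM in the Sox2-low tumours (log2 fold change 0.14 ± 0.13, SE; edgeR adjusted p = 0.675). Sox9, a Sox family factor of glia and neural stem cells, had medians of 198.3 CPM in the Sox2-high and 177.1 CPM in the Sox2-low tumours (log2 fold change 0.21 ± 0.15, SE; edgeR adjusted p = 0.554). Nes, Vim and Sox9 overlapped between the groups throughout.

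**Figure D3:**
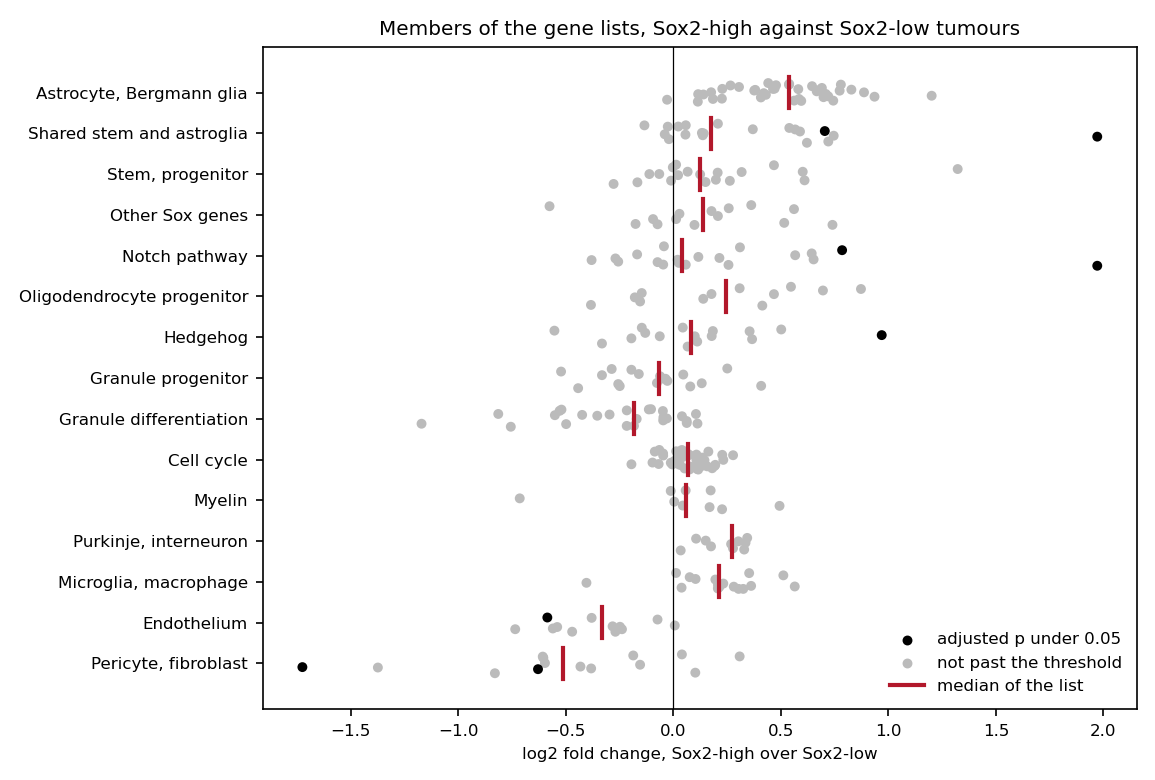
Log2 fold change, Sox2-high over Sox2-low (x axis), of each tested member of 15 gene lists (rows), Sox2 left out. Black points passed the adjusted threshold, grey points did not, and the red bar is the median of the list. The astrocyte and Bergmann glia list has the highest median, 0.54, with no black point, and the pericyte and fibroblast list the lowest, -0.51.

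The same fit with the astroglia score as a further covariate asks which differences remain at an equal astroglia level. The score is the mean of the astroglia list itself, so that list's median of 0.03 in this fit follows from the construction and shows nothing about these cells. The median log2 fold change was 0.08 for the shared list and 0.15 for the stem list. All 31 genes called higher and all 30 called lower without the covariate were called with it. Hes5 had a log2 fold change of 1.80 there (edgeR adjusted p = 0.0031), Wif1 of 3.07 (edgeR adjusted p = 0.001) and Fabp7 of 0.73 (edgeR adjusted p = 0.012). Calls grew to 282 higher genes (2.06%) and 456 lower genes (3.33%). In that fit 3 stem genes were called higher, Pou3f4, Olig2 and Bmi1, and 1 astroglia marker, Kcnj10, was higher while F3 was lower. The score came from the same libraries as the fit, and medians of the Purkinje and granule differentiation lists were -0.72 and -0.48 with it, so the covariate also moved other lists.

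**Figure D4:**
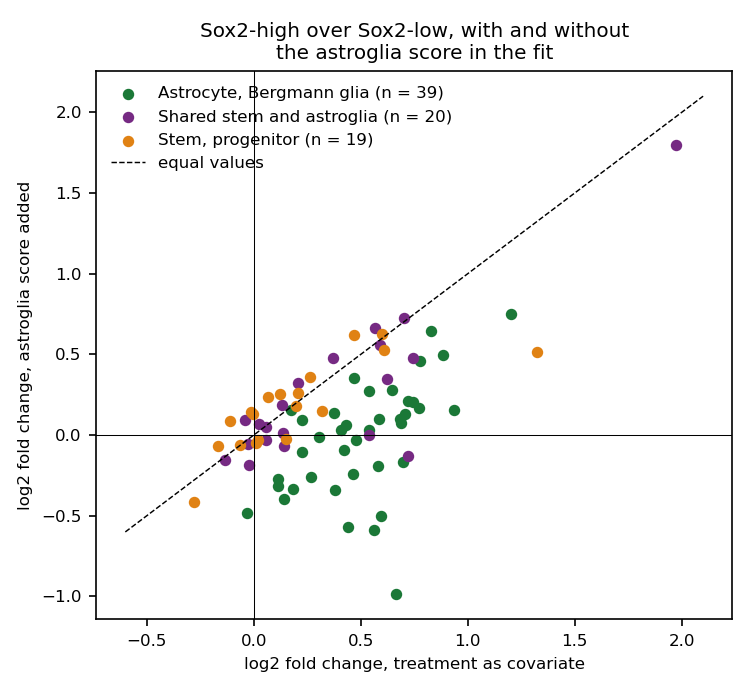
Log2 fold change, Sox2-high over Sox2-low, with treatment as covariate (x axis) and with the astroglia score added (y axis), for 39 astrocyte and Bergmann glia markers (green), 20 genes shared by stem cells and astroglia (purple) and 19 stem and progenitor genes (orange). The dashed line marks equal values. The score is the mean of the green genes, so their drop to a median of 0.03 follows from its construction. The orange points have a median of 0.15 with the score and 0.12 without it.

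The astroglia shift was small in one treatment group and larger in the other, a contrast that was not tested over the list. The list's median log2 fold change was 0.12 in the tumours with tamoxifen and 0.88 in those without, and the stem list had 0.13 with tamoxifen and 0.11 without. The astroglia score had medians of 6.28 in Sox2-high and 6.10 in Sox2-low tumours with tamoxifen, and of 5.76 in Sox2-high and 4.61 in Sox2-low tumours without. Tamoxifen replicate 14, with a score of 7.27, is among the Sox2-low tumours with tamoxifen. No fit within a treatment group left it out, so its weight in the 0.12 is not known. A test of the interaction between Sox2 group and treatment called 0 of 14238 genes in edgeR, with 132 genes (0.927%) higher and 142 (0.997%) lower at an unadjusted p under 0.05. The calls within a treatment group were few, with none higher and none lower with tamoxifen, and 1 higher and 1 lower without. All 61 called genes had the same direction in both treatment groups, but they were called from these same tumours, so this is a description.

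**Figure D5:**
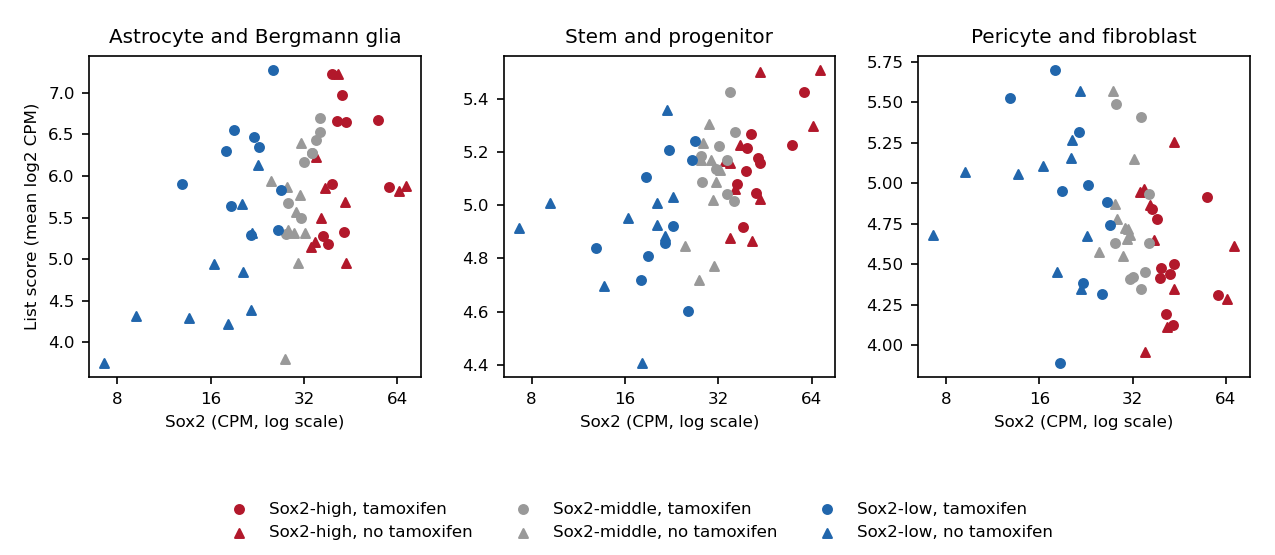
List scores in mean log2 CPM (y axes) against the Sox2 level in CPM on a log scale (x axes) in the 59 Lazy Piggy tumours, for astrocyte and Bergmann glia, stem and progenitor, and pericyte and fibroblast markers. Red is Sox2-high, grey between, blue Sox2-low, circles with tamoxifen and triangles without. The groups overlap in every panel, and the Sox2-low tumour at the top of the astroglia panel, at 7.27, is tamoxifen replicate 14.

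No gene of the granule neuron lineage, to which most tumour cells belong, was called. Atoh1, the factor that defines granule neuron progenitors, had 70.1, 203.2 and 433.7 CPM in the Sox2-high tumours and 28.8, 222.0 and 392.9 CPM in the Sox2-low tumours (log2 fold change -0.25 ± 0.22, SE; edgeR adjusted p = 0.63). The granule progenitor list had no call among 18 genes and a median of -0.07. Of the 18, 5 were positive, beside 46.4% of all genes, with 1 higher and 2 lower at an unadjusted p under 0.05. The granule differentiation list had no call among 25 genes and a median of -0.18 (0.0089 without tamoxifen replicate 14, so its sign rests on that tumour). Of the 25, 5 were positive, and 13 were without that tumour. Cntn2, a surface marker of granule cells that leave the cell cycle, had medians of 465.3 CPM in the Sox2-high and 347.1 CPM in the Sox2-low tumours, with a log2 fold change of 0.06 ± 0.26 (SE; edgeR adjusted p = 0.94). Mki67, the proliferation marker, had 321.7, 708.4 and 1026 CPM in the Sox2-high tumours and 146.9, 721.0 and 1108 CPM in the Sox2-low tumours (log2 fold change 0.02 ± 0.14, SE; edgeR adjusted p = 0.966). None of 39 cell cycle genes was called and their median was 0.07 (0.016 without tamoxifen replicate 14). Of the 39, 30 were positive, and 20 were without that tumour. Cdkn1b, an inhibitor of cyclin-dependent kinases, had medians of 414.9 CPM in the Sox2-high and 404.3 CPM in the Sox2-low tumours (edgeR adjusted p = 0.566), and none of 7 such inhibitors was called. Kcnb2, the potassium channel gene that gave the series its knockout, had medians of 6.79 CPM in the Sox2-high and 6.90 CPM in the Sox2-low tumours (log2 fold change 0.01 ± 0.18, SE; edgeR adjusted p = 0.991).

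Oligodendrocyte progenitor markers had no call among 12 genes and a median of 0.24. Of the 12, 8 were positive and 3 were higher at an unadjusted p under 0.05, beside 46.4% and 5.91% of all genes. A slope on Sox2 over all 59 tumours called 2 of them higher, and DESeq2 called 1. Their median slope on Sox2 was 0.42 with 11 of 13 positive in the SmoM2 tumours. In the middle tumours it was -0.30 with 3 of 12 positive. Myelin genes had no call among 9 and a median of 0.06 (0.39 over 8 genes without tamoxifen replicate 14). Pdgfra, which marks those progenitors, had a log2 fold change of -0.15 ± 0.17 (SE; edgeR adjusted p = 0.709), and Mbp, a myelin protein, of 0.00 ± 0.35 (SE; edgeR adjusted p = 0.998; 0.36 without tamoxifen replicate 14). The 10 Purkinje cell and interneuron markers tested were all positive, with a median of 0.27 and none called. Pcp2, a Purkinje cell protein, had medians of 1.67 CPM in the Sox2-high and 0.367 CPM in the Sox2-low tumours (edgeR adjusted p = 0.95). The list's median became 0.99 over 9 markers without tamoxifen replicate 14. Over all fits without 1 tumour it ran from -0.33 to 1.00, and the medians of the myelin, unipolar brush cell, ependymal, choroid, interferon, T cell and kinase inhibitor lists also changed sign in at least 1 such fit. Microglia markers had a median of 0.21 with none of 17 called, but 16 were positive and 4 were higher at an unadjusted p under 0.05, beside 46.4% and 5.91% of all genes; their part in the astroglia shift was not tested. Unipolar brush cell markers had a median of -0.12 with none of 4 (0.17 without tamoxifen replicate 14), ependymal markers 0.03 with none of 3 (0.00165 without that tumour), interferon response genes 0.05 with none of 11 (0.02 without it), and the T cell gene tested, Cd4, -0.12 without a call (-0.19 without it). Foxj1, the factor of ciliated ependymal cells, had medians of 6.90 CPM in the Sox2-high and 7.24 CPM in the Sox2-low tumours.

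Clic6, a chloride channel protein of choroid plexus, was higher in the Sox2-high tumours. It had 4.50, 32.9 and 130.7 CPM in the Sox2-high tumours, against 2.29, 6.61 and 65.8 CPM in the Sox2-low tumours. The log2 fold change was 1.88 ± 0.42 (SE; edgeR adjusted p = 0.0324), and the call ended in 3 of the 40 fits without 1 tumour, with an adjusted p of 0.065 without tamoxifen replicate 25. The rest of the choroid list did not follow it: 4 of 10 markers were tested, Clic6 alone was called, and Aqp1 had a log2 fold change of -1.58. Ttr, the most abundant choroid transcript, was near 0 in most tumours, with medians of 0.392 CPM in the Sox2-high and 0.312 CPM in the Sox2-low tumours.

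Another set of higher genes serves amino acid supply and the response to its shortage. Gpt2, the mitochondrial alanine aminotransferase, had 75.0, 100.7 and 209.5 CPM in the Sox2-high tumours and 39.9, 67.7 and 106.8 CPM in the Sox2-low tumours. All 20 Sox2-high tumours were above the Sox2-low median of Gpt2, with a log2 fold change of 0.66 ± 0.12 (SE; edgeR adjusted p = 0.0073). Atf5, a transcription factor of neural progenitors that is also translated under stress, had 32.1, 118.5 and 272.5 CPM in the Sox2-high tumours and 19.3, 55.1 and 136.4 CPM in the Sox2-low tumours. Its groups overlapped, with 8 of 20 Sox2-high tumours above every Sox2-low tumour, and the log2 fold change was 1.16 ± 0.23 (SE; edgeR adjusted p = 0.0171). Mthfd2, the mitochondrial folate enzyme, had a log2 fold change of 1.04 ± 0.24 (SE; edgeR adjusted p = 0.0372), and Eif4ebp1, an inhibitor of translation, of 1.08 ± 0.27 (SE; edgeR adjusted p = 0.0493). Those calls were less firm: Mthfd2 was lost in 14 and Eif4ebp1 in 33 of the 40 fits without 1 tumour. Cebpg, a partner of the stress factor Atf4, had medians of 172.2 CPM in the Sox2-high and 124.6 CPM in the Sox2-low tumours (log2 fold change 0.57 ± 0.13, SE; edgeR adjusted p = 0.0324), a call lost in 4 of those fits. Slc1a4, a carrier of neutral amino acids, was also called (log2 fold change 0.57 ± 0.14, SE; edgeR adjusted p = 0.0466), and was lost in 28 of those fits. This grouping was made after the calls were seen.

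The genes that followed Sox2 most closely over the 59 tumours were, after Hes5, Mpp5 with a Spearman correlation of 0.69, Fgfr2 with 0.658, Wif1 with 0.657, Dbx2 with 0.655, Gpt2 with 0.654, Rgma with 0.633, Fabp7 with 0.63, Nrarp with 0.625 and Cebpg with 0.622. All 10 were also called between the groups, which share 40 of these 59 libraries. A slope on Sox2 fitted over all 59 tumours in edgeR called 347 genes rising (2.28%) and 375 falling (2.47%), among them 18 of 39 astroglia markers and 2 of 19 stem genes (Pou3f4 and Olig2), all of them rising. Mpp5, a scaffold of apical cell polarity, had 47.9, 57.0 and 68.5 CPM in the Sox2-high tumours and 31.5, 47.9 and 60.6 CPM in the Sox2-low tumours, with 10 of 20 Sox2-low tumours below every Sox2-high tumour (log2 fold change 0.33 ± 0.06, SE; edgeR adjusted p = 0.0102). Dbx2, a homeobox factor of neural progenitors and astrocytes, had medians of 8.14 CPM in the Sox2-high and 5.39 CPM in the Sox2-low tumours (log2 fold change 0.73 ± 0.17, SE; edgeR adjusted p = 0.0372), a call lost in 13 of the 40 fits without 1 tumour.

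The genes lower in the Sox2-high tumours included vessel wall and matrix genes. Acta2, the smooth muscle actin of mural cells, had 0.936, 3.22 and 8.40 CPM in the Sox2-high tumours, against 1.00, 5.79 and 45.1 CPM in the Sox2-low tumours. It fell by 1.73 on the log2 scale (SE 0.39; edgeR adjusted p = 0.0372), with 8 of 20 Sox2-low tumours above every Sox2-high tumour, and was lost in 10 of the 40 fits without 1 tumour. Eln, elastin, had 4.40, 16.3 and 72.3 CPM in the Sox2-high tumours and 11.8, 48.1 and 210.5 CPM in the Sox2-low tumours. Eln fell by 1.40 on the log2 scale (SE 0.31; edgeR adjusted p = 0.0325), and 18 of 20 Sox2-high tumours were below the Sox2-low median. Pecam1, an adhesion molecule of endothelium, had 9.68, 15.1 and 21.4 CPM in the Sox2-high tumours and 11.5, 22.0 and 34.4 CPM in the Sox2-low tumours. All 20 Sox2-high tumours were below the Sox2-low median of Pecam1, which fell by 0.59 on the log2 scale (SE 0.13; edgeR adjusted p = 0.0306) and was lost in 4 of those fits. Pdgfrb, the growth factor receptor of pericytes, had medians of 13.4 CPM in the Sox2-high and 18.7 CPM in the Sox2-low tumours and fell by 0.63 on the log2 scale (SE 0.15; edgeR adjusted p = 0.0397), a call that ended in 20 of the 40 fits. In the whole pericyte and fibroblast list, 2 of 14 genes were called lower, beside 0.219% of all genes, 3 had a positive log2 fold change, beside 46.4% of all genes, and the median was -0.51. Without tamoxifen replicate 14, 3 of its genes were called lower. In the endothelial list, 1 of 12 was called lower, 1 was positive and the median was -0.33. The pericyte and fibroblast score ran from 3.96 to 5.25 in the Sox2-high and from 3.89 to 5.70 in the Sox2-low tumours, and the endothelial score ran from 3.36 to 4.24 in the Sox2-high and from 3.55 to 4.72 in the Sox2-low tumours. Their part in the single-gene results was not tested.

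Further genes were called lower, described here one by one and not as a group. Ccn2, a matricellular protein, fell by 1.29 on the log2 scale (SE 0.30; edgeR adjusted p = 0.0397), Sned1, a matrix glycoprotein, by 1.05 (SE 0.26; edgeR adjusted p = 0.0484), and Stc1, the hormone stanniocalcin, by 1.21 (SE 0.29; edgeR adjusted p = 0.0466). Thpo, thrombopoietin, had 0.401, 1.60 and 3.68 CPM in the Sox2-high tumours and 1.49, 2.88 and 5.56 CPM in the Sox2-low tumours and fell by 0.91 on the log2 scale (SE 0.20; edgeR adjusted p = 0.0306). The groups of Thpo overlapped, with 7 of 20 Sox2-high tumours below every Sox2-low tumour. Hmox1, the haem-degrading enzyme induced by oxidative stress, had 8.38, 15.2 and 26.6 CPM in the Sox2-high tumours and 6.65, 25.2 and 377.6 CPM in the Sox2-low tumours. Hmox1 fell by 1.73 on the log2 scale (SE 0.38; edgeR adjusted p = 0.0325), and the highest value, that of tamoxifen replicate 27, weighed on it, since the adjusted p was 0.0583 without that tumour. Crocc2, a relative of the ciliary rootlet protein, had 0, 0.792 and 2.98 CPM in the Sox2-high tumours and 0.354, 3.60 and 18.5 CPM in the Sox2-low tumours. All 20 Sox2-high tumours were below the Sox2-low median of Crocc2, which fell by 2.22 on the log2 scale (SE 0.47; edgeR adjusted p = 0.0294). Car3, a carbonic anhydrase, fell by 1.56 (SE 0.34; edgeR adjusted p = 0.0306) and Acer2, an alkaline ceramidase, by 1.27 (SE 0.31; edgeR adjusted p = 0.0473). Without 1 tumour, the call was lost in 27 of 40 fits for Acer2 and Sned1, 24 for Stc1, 19 for Ccn2, 6 for Hmox1 and Eln and 1 for Car3.

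The other called genes had smaller changes. Higher in the Sox2-high tumours were Lix1l, with the smallest p of these (log2 fold change 0.45 ± 0.08, SE; edgeR adjusted p = 0.00469), Cdo1, the cysteine dioxygenase, Flrt3, Tmco3, Cav2, Tom1l1, Mrgpre, 2410006H16Rik, Trim47, Mmd2, Bcl2, the inhibitor of cell death, Tst, Inppl1 and Tpt1-ps3, with log2 fold changes of 0.36 to 0.70. Lower were Chpf2, Efna1, Rbpms, Ralgapa2, Igfbp4, Nom1, Spns2, Mgat4b, Col18a1, Dap, 2900052L18Rik, Slc29a4, Psmd3, Sesn1, Arl4d, Sbsn and Ppp1r1a, with log2 fold changes of -0.20 to -0.88, and AI593442, whose change was the largest of this group. Of these lower genes Chpf2 alone was called in all 40 fits without 1 tumour, and Arl4d was not called without tamoxifen replicate 14 (edgeR adjusted p = 0.0502). Reads of Tpt1-ps3, a pseudogene, may be shared with its parent gene, so its value is uncertain.

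The 19 middle tumours entered neither group, although their Sox2 values took part in the ranking, and they cover a narrow Sox2 range. A slope on the log2 level of Sox2 called 0 of 14253 genes in edgeR, with 364 (2.55%) rising and 647 (4.54%) falling at an unadjusted p under 0.05. Of the 31 genes called higher, 22 had a positive slope there, beside 46.2% of all genes. At an unadjusted p under 0.05, 3 of the 31 rose and 1 fell. Of the 30 genes called lower, 27 had a negative slope, beside 53.8% of all genes. Astroglia markers had a median slope of 1.57, in log2 units per doubling of Sox2, and 39 of 40 were positive, while the stem list had a median slope of 0.02 and 10 of 20 positive. Other lists had slopes away from that of all genes (median -0.06). The choroid list had a median slope of 14.9 with 10 of 10 positive and 9 rising at an unadjusted p under 0.05. The Purkinje list had 1.18 with 13 of 13 positive, and the ependymal list 1.02 with 4 of 5 positive. Myelin genes had 0.41 with 7 of 11 positive, and unipolar brush cell markers 0.44 with 3 of 4. The endothelial list had -1.02 with 1 of 12 positive and 4 falling at an unadjusted p under 0.05. The pericyte and fibroblast list had -0.81 with 2 of 14 positive. Cell cycle genes had -0.44 with 7 of 39 positive, and interferon genes -1.03 with 4 of 11. Granule progenitor genes had -0.27 with 5 of 18 positive and 5 falling at an unadjusted p under 0.05, beside 4.54% of all genes. The choroid score was 6.84 in no tamoxifen replicate 6 and 6.74 in tamoxifen replicate 6, where the median of the middle tumours was 2.46. No slope of the middle tumours was refitted without 1 tumour, so the weight of single tumours in these slopes is not known. The part of these other lists in the astroglia slope was not tested. Gfap had a slope of 3.05 and Aqp4 of 4.04 there, and Hes5 had 0.24 (edgeR unadjusted p = 0.88).

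The 10 Math1-Cre; SmoM2 tumours are a different model, in which an activated form of Smo is switched on in granule neuron progenitors. Sox2 ran from 24.8 to 31.8 CPM in the 3 Kcnb2 knockout tumours and from 21.3 to 55.7 CPM in the 7 Kcnb2 wild-type tumours. Wild-type replicate 3 is wild-type by its genotype label, while its title has the form used for the knockout tumours. The column of counts matched to it has a name of the wild-type form, which differs from the title by a letter. The slope on Sox2 called 0 of 20578 genes in edgeR, with 1377 (6.69%) rising and 986 (4.79%) falling at an unadjusted p under 0.05, and DESeq2 called 287 rising and 96 falling. Of the 31 genes higher in the Sox2-high Lazy Piggy tumours, 24 had a positive slope, beside 49.5% of all genes, and 5 had an unadjusted p under 0.05, among them Rgma with a slope of 0.86 and Lix1l with 0.61. Of the 30 lower genes, 13 had a negative slope and the median slope was 0.06; at an unadjusted p under 0.05, 1 had a negative slope and 6 had a positive one, opposite to their direction in the Lazy Piggy tumours. Of the 31 higher genes, 1 had a negative slope at that level. Astroglia markers had a median slope of 0.45 with 37 of 40 positive and 12 rising at an unadjusted p under 0.05, the shared list 0.50 with 18 of 20 positive, and the stem list 0.23 with 20 of 26 positive. Leaving out 1 tumour moved these medians: the astroglia median was 0.29 without Kcnb2 wild-type replicate 1, and the stem median was 0.09 without replicate 6 and 0.46 without replicate 7, where the astroglia median was 0.50. The endothelial list had a median slope of 0.25 with 12 of 12 positive, and the pericyte and fibroblast list 0.53 with 9 of 13 positive (0.24 without replicate 7), the opposite sign to their fold changes in the Lazy Piggy tumours. Gfap had a slope of 1.72, Aqp4 of 1.40 and Slc1a3 of 0.67, Hes5 of 0.39 and Wif1 of -0.96. Kcnb2 wild-type replicate 7 had the highest Sox2, 55.7 CPM, and without it 1 of 40 astroglia markers and 1 of 26 stem genes rose at an unadjusted p under 0.05, although 37 and 19 of them were positive. All these slopes pooled both Kcnb2 genotypes without genotype in the fit. With genotype as a covariate, the median slope was 0.54 for astroglia markers, 0.51 for the shared list and 0.15 for the stem list.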

How the data were processed

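Bulk polyadenylated RNA of mouse SHH medulloblastomas was sequenced after TruSeq library preparation, per the labels' protocols. STAR 2.5.4b and mm9 appear in the submitters' processing notes, and no source used here names the counting program, its strand setting or its annotation. The authors deposited raw counts of reads per gene, in 1 table per model. The Lazy Piggy table holds 37964 rows and 60 libraries, of which 10 rows name construct parts, took 0.0012% of the counts and stayed out of all sums and tests. Symbols were found for 32882 of its rows, with 99.3% of the counts. CPM is the count divided by the sum over mouse gene rows, times 1000000. The members and gene lists were chosen with earlier results of these data known. Sox2 ranked the tumours within each treatment group and was left out of the tests.

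Genes were tested with edgeR 4.0.16 in R 4.3.3 (TMM normalization, filterByExpr with a minimum count of 10, quasi-likelihood F test, Benjamini-Hochberg adjustment over all genes tested, threshold 0.05), with treatment as covariate. DESeq2 1.42.0 was an alternative. List scores are mean log2 CPM with a prior count of 2. The middle and SmoM2 tumours were fitted with Sox2 log2 CPM as a slope. Treatment was a covariate in the middle tumours, and the SmoM2 fit had no covariate. On simulated counts of the 40 libraries with 13703 genes, this test recovered 69% of genes changed 1.5-fold and 90% of those changed 2-fold, with 7 false calls among 166. Each simulated gene varied independently, without a treatment effect, shared cell composition or an outlying tumour. These rates therefore need not hold for the tumours themselves. Named genes were the 10 largest changes in each direction among calls whose mean log2 CPM reached 1, the called members of each list, a set of marker genes whatever their call (1 of which is not reported here), and the 10 genes closest to Sox2. Other called genes and list members with values were named after their values were seen. Promoter sequences are RefSeq's, matched by symbol. Precision is limited by the depth of 5869618 to 8667344 counts per Lazy Piggy library.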

Additional observations from a re-analysis of the deposited data

Results flagged for a closer look

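A tumour far from the other 9 of its group was found for 16 of the 204 gene and group pairs examined (51 genes in 4 groups of 10). The measure was the gap to the nearest tumour as a share of the range, with a critical value of 0.466. At that value chance flags about 5% of groups. The shares were not taken on the CPM scale of the values given below.

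Tamoxifen replicate 14, a Sox2-low tumour, accounted for 7 of them. It had the highest S100b of its group at 369.9 CPM, where the nearest tumour had 138.7 CPM, and the lowest of 6 genes. These were Nes at 44.2 CPM (nearest 146.5), Sox9 at 39.3 CPM (nearest 109.8), Msi1 at 62.9 CPM (nearest 134.3), Atoh1 at 28.8 CPM (nearest 128.0), Mki67 at 146.9 CPM (nearest 402.2) and Pdgfra at 96.3 CPM (nearest 290.0). It thus had high astroglia, myelin and Purkinje scores together with low progenitor and proliferation genes.

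Among the Sox2-high tumours, no tamoxifen replicate 21 had the lowest Thpo at 0.784 CPM and the lowest Cntn2 at 82.0 CPM, no tamoxifen replicate 11 the lowest Olig2 at 26.4 CPM, and tamoxifen replicate 9 a Ttr level of 316.5 CPM. Among the Sox2-low tumours, no tamoxifen replicate 16 had the lowest Gfap at 47.7 CPM, no tamoxifen replicate 10 the lowest Vim at 95.7 CPM, no tamoxifen replicate 23 a Pcp2 level of 16.7 CPM where the nearest had 0.434 CPM, and tamoxifen replicate 5 a Foxj1 level of 42.7 CPM. Ttr was 932.6 CPM in no tamoxifen replicate 28, where the nearest Sox2-low tumour without tamoxifen had 0.635 CPM.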

How the results depend on the processing

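Counts of genes called in the Sox2-high against Sox2-low comparison moved with the method more than single fold changes did. Against 31 higher and 30 lower genes, DESeq2 gave 95 and 177, the mature cerebellum score as a further covariate 52 and 67, the astroglia score as a further covariate 282 and 456, a slope over all 59 tumours 347 and 375, the 5 highest and 5 lowest of each treatment group 7 and 0, tamoxifen tumours only 0 and 0 (with 1099 genes at an unadjusted p under 0.05) and no tamoxifen tumours only 1 and 1. Upper-quartile normalization gave 26 and 17, no low-count filter 27 and 21, and the title period as covariate 28 and 20. The cause was not tested, except that the single-treatment and 5-tumour fits hold fewer samples. All 61 called genes kept their direction in these fits where tested, but the fits share tumours with the one that called the genes, so this is a description.

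Leaving out each tumour gave 12 to 61 higher and 4 to 82 lower genes, and 0 to 4 called astroglia markers and 0 stem genes. The number of higher genes moved by over 1.5 times in 15 of 40 removals, given with the count in parentheses: in the tamoxifen group replicates 25 (12), 4 (17), 19 (19), 23 (19), 7 (20) and 14 (61), and in the no tamoxifen group replicates 17 (13), 5 (15), 29 (15), 26 (16), 10 (17), 18 (19), 28 (19), 25 (20) and 23 (49). The number of lower genes moved so in 29 removals: in the tamoxifen group replicates 25 (5), 4 (8), 19 (8), 7 (10), 27 (10), 8 (13), 20 (13), 23 (13), 5 (14), 29 (14), 16 (15), 21 (17), 11 (60), 15 (63) and 14 (75), and in the no tamoxifen group replicates 5 (4), 26 (5), 29 (5), 17 (8), 18 (11), 8 (12), 11 (12), 10 (14), 25 (15), 28 (15), 15 (18), 16 (48), 23 (67) and 9 (82). Of the 61 called genes, 24 lost their call in at least 20 of those 40 fits, and none changed sign.

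Called astroglia markers numbered 4 in DESeq2 (Slc6a11, Kcnj10, Slc1a3 and Npas3), 1 with the cerebellum score (Slc1a3), 1 with the astroglia score and 18 in the slope over 59 tumours, against 0. Called stem genes numbered 1 in DESeq2 (Pou3f4), 3 with the astroglia score and 2 in the slope over 59 tumours (Pou3f4 and Olig2), against 0. Among genes given by name whose value was not past the threshold, the sign changed in 5 with tamoxifen tumours only, 4 with the astroglia score, 4 in the slope, 3 in the 5-tumour groups, 2 with the cerebellum score, 1 in DESeq2 and 1 with no tamoxifen tumours only. In the SmoM2 tumours, DESeq2 gave 287 rising and 96 falling genes and no low-count filter 25 rising; leaving out each tumour gave 0 to 55 rising genes (55 without Kcnb2 wild-type replicate 6 and 1 without replicate 3) and 0 falling.

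No paired analysis was possible because the replicate numbers were given in accession order and do not link tumours across groups, and the Sox2 groups were formed by rank. At 52 to 213 Sox2 reads in the Sox2-low libraries, counting error blurs which tumour falls on which side of the edges. The split takes Sox2 from the same libraries as every other gene, so shared composition enters each difference.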

Other observations

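A list of 38 amino acid response and Atf4 target genes was drawn up after the called genes were seen and without them, so its counts are a description. Of 36 tested, 32 had a positive log2 fold change, beside 46.4% of all genes, and the median was 0.31, beside -0.01 for all genes. None was called, and 23 were higher at an unadjusted p under 0.05, which 5.91% of all genes reached upward. Over the fits without 1 tumour, 0 to 8 genes of the list were called higher. DESeq2 called 4 higher, and edgeR with the mature cerebellum score as a further covariate called 5. Asns, asparagine synthetase, had 53.7, 169.2 and 448.5 CPM in the Sox2-high tumours and 15.8, 85.6 and 236.1 CPM in the Sox2-low tumours (log2 fold change 1.10 ± 0.27, SE; edgeR adjusted p = 0.0525). Without tamoxifen replicate 14, 1 gene of the list was called, and it was Asns (edgeR adjusted p = 0.0448). Shmt2, a mitochondrial serine enzyme, had medians of 249.2 CPM in the Sox2-high and 150.4 CPM in the Sox2-low tumours (log2 fold change 0.57 ± 0.17, SE; edgeR adjusted p = 0.106). In the slope over 59 tumours 17 of these genes were called higher, and 13 were with the astroglia score as covariate. The 19 middle tumours gave 17 of 37 positive slopes, and the SmoM2 tumours also gave 17 of 37.

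In the SmoM2 tumours, interferon response genes and microglia markers had the steepest positive slopes on Sox2 of the lists described. The interferon list had a median slope of 2.40 with 14 of 14 positive, and the microglia list 0.96 with 19 of 19 positive. Without Kcnb2 wild-type replicate 7 the medians were 0.09 and 0.33, with 8 of 14 and 15 of 19 positive. Granule differentiation genes had a median slope of -0.99 with 0 of 25 positive, and of -0.49 with 1 of 25 positive without that tumour. With Kcnb2 genotype as a covariate the granule median was -0.61, with 0 of 25 positive.

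The Lazy Piggy tumour with no treatment label had a Sox2 level of 40.6 CPM.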
